A study of Mus musculus with 20 samples.

Results

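Ferritin is the cage-like protein that stores iron inside cells, and it is built from a heavy subunit, encoded by Fth1, and a light subunit, encoded in the mouse by Ftl1. The probe sets followed here are all those annotated to Fth1 and every one whose gene symbol field contains Ftl1. They number 5 of the 45101 on the array: 2 for Fth1 (1427021_s_at and 1448771_a_at) and 3 for Ftl1 (1418364_a_at, 1422302_s_at and 1422301_at). Each Fth1 probe set carries that symbol alone. No Ftl1 probe set does: 1418364_a_at and 1422302_s_at also carry the pseudogene Ftl1-ps2, and 1422301_at carries Ftl1-ps2 and 3 microRNA genes named Mir692-1, Mir692-2 and Mir692-3. Signal from Ftl1 and from its near-identical copies can therefore not be told apart, and each probe set is reported separately.

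The heavy subunit carries the ferroxidase centre that oxidises iron as it enters the cage, and the light subunit favours the building of the mineral core. Near the cap of both messenger RNAs, in the 5′ untranslated region (UTR), lies a hairpin known as the iron-responsive element (IRE). In iron-poor cells, iron regulatory protein 1 (IRP1) binds that hairpin and blocks the start of translation, so that less ferritin is made. In iron-replete cells IRP1 takes up an iron-sulfur cluster, works as cytosolic aconitase and no longer binds the RNA.

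RNAs held by IRP1 were measured on Affymetrix Mouse430_2 arrays. In the IRP1 reaction, 50 µg of pooled total RNA from C57BL6/J mice of both sexes met recombinant His-tagged IRP1, expressed in E. coli, and a rabbit polyclonal antibody against it. In the control reaction the antibody was present and the recombinant protein was left out. There were 2 arrays per reaction in each of 5 tissues, 20 in all. The duodenum, liver and spleen reactions, IRP1 and control alike, used RNA of mice given food with less than 10 mg/kg of iron for 21 days after weaning. The bone marrow and brain reactions, IRP1 and control alike, used RNA of mice on an iron-normal diet, 8 to 10 weeks old. Diet, age and tissue can therefore not be told apart between these sets of tissues. The protein was added to purified RNA, so the comparison addresses which RNAs the recombinant IRP1 held in the tube, not how much IRP1 was active in the tissue. Per the labels, each array used 120 ng of immunoprecipitated RNA, with 2 rounds of amplification. A change is therefore one of an RNA's share among the precipitated RNAs, not of the amount recovered. Bone marrow and brain RNA came from 6 mice each and that of 1 duodenum sample from 4, per the labels, which do not say whether 2 replicates came from separate pools. The p-values measure the spread between these arrays, which may be technical.

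Values are log2 signals per probe set, so a difference of 1 is a doubling. Array medians lay between 5.50 and 5.62 and the highest value of an array between 15.14 and 15.35. Marker genes of each tissue were highest in it: the enterocyte list averaged 12.22 to 12.48 over the duodenum arrays, the hepatocyte list 13.39 to 14.14 in liver, the lymphocyte list 10.26 to 10.88 in spleen, the neutrophil precursor list 12.60 to 13.06 in bone marrow, and the neuron and glia list 9.97 to 10.22 in brain. The hybridization controls of 2 arrays lay over 1 log2 unit below those of the median array, by 1.06 in spleen IRP1 replicate 2 and by 1.26 in spleen control replicate 2, and spleen results are given with and without them.

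The probe set 1422301_at names a microRNA, miR-692, and its sequence is shown because it is the label that sets this probe set apart from the other Ftl1 probe sets. In RefSeq (GRCm38.p6) the 3 copies give 1 mature sequence of 21 bases, printed 5′ to 3′ with the seed, bases 2 to 8, in capitals.
mmu-miR-692: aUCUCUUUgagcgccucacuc
Copies of it lie at chr17:6895259-6895279 on the minus strand (Mir692-1), at chr4:125504805-125504825 on the plus strand (Mir692-2) and at chr13:74407121-74407141 on the plus strand (Mir692-3). The annotation places Mir692-2 inside the ferritin light chain pseudogene Ftl2-ps, within the gene Grik3, and Mir692-3 inside the pseudogene Ftl1-ps1. No other annotated gene spans the whole mature sequence of Mir692-1. So 2 of the 3 copies lie in ferritin light chain pseudogenes by position, with strand not compared. The annotation of 1422301_at names the 3 microRNA genes, Ftl1 and Ftl1-ps2, but neither Ftl2-ps nor Ftl1-ps1.

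**Figure D1:**
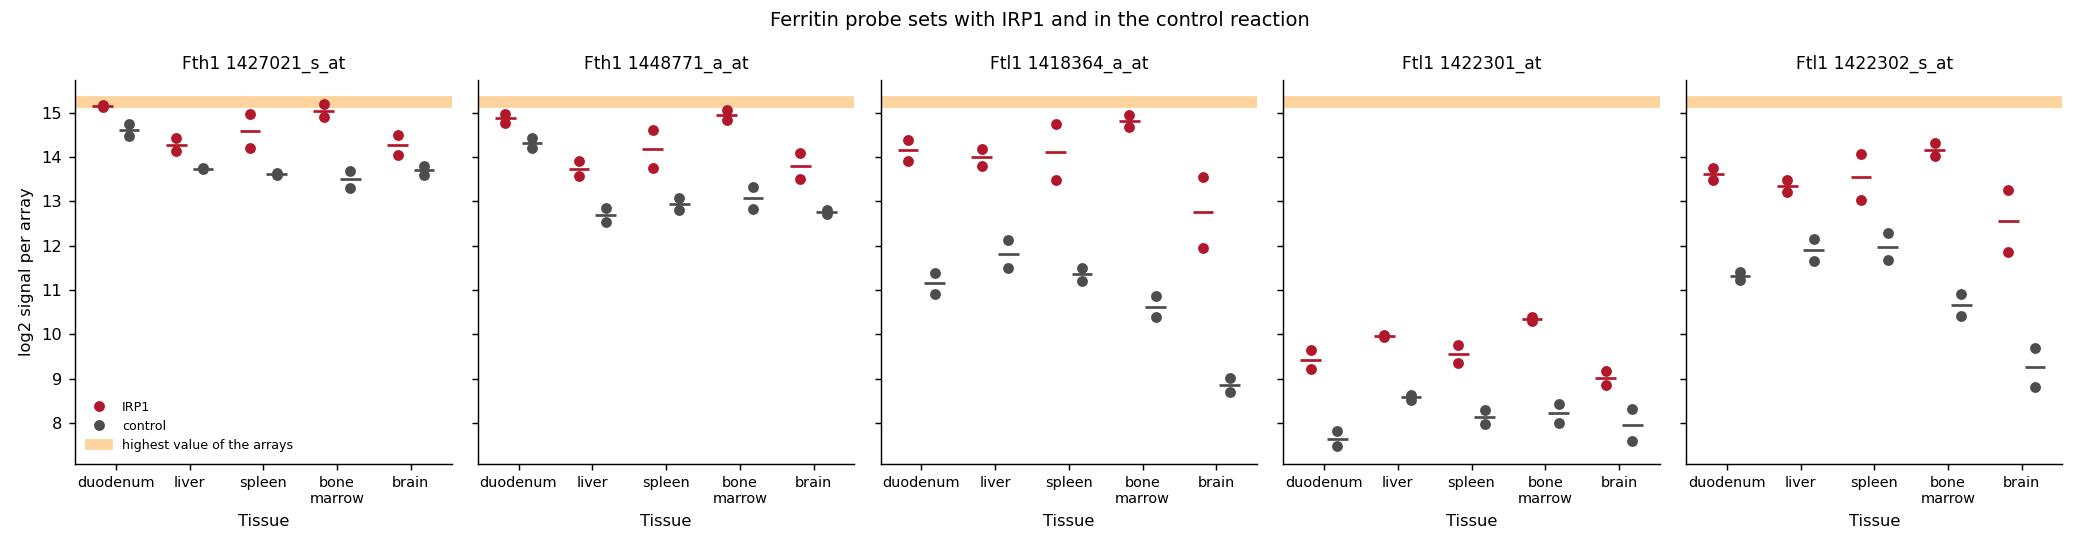
Log2 signal (y axis) of each ferritin probe set, 1 panel each, in the 5 tissues (x axis). Each point is 1 array, with IRP1 in red on the left and control in grey on the right of each tissue, short lines are means of 2 arrays, and the shaded band spans the highest value of the 20 arrays, 15.14 to 15.35. In all 25 pairs of groups both red points lie above both grey ones.

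RNA of both ferritin subunits gave a higher signal among the precipitated RNAs with IRP1 than without it. In the mean of the 5 tissues all 5 probe sets were called higher (limma, adjusted p under 0.05 over 45037 probe sets), where 0.773% of all probe sets were called higher and 1.03% lower. The Ftl1 changes were 3.21 ± 0.20 for 1418364_a_at, 2.42 ± 0.18 for 1422302_s_at and 1.56 ± 0.11 for 1422301_at (log2, IRP1 minus control, ± SE), which are 9.23-fold, 5.36-fold and 2.94-fold. For Fth1 they were 1.16 ± 0.12 for 1448771_a_at and 0.84 ± 0.10 for 1427021_s_at, which are 2.23-fold and 1.78-fold. The adjusted p was 9.64e-08, 9.41e-07 and 3.03e-07 for these Ftl1 probe sets and 3.65e-05 and 3.16e-04 for these Fth1 probe sets. The change of 1418364_a_at was the largest of the 45037 in the mean. Neither replicate group overlapped the other in any of the 25 comparisons of a probe set in a tissue. Of all probe sets, 0.409% kept both IRP1 arrays above both control arrays in every one of the 5 tissues. Within single tissues that share was 16.6% in duodenum, 19.2% in liver, 17.6% in spleen, 19% in bone marrow and 16.7% in brain, so in 1 tissue alone such a separation is common. Without the 2 spleen arrays of low hybridization control the mean changes lay between 0.75 (1427021_s_at) and 3.11 (1418364_a_at), and all 5 probe sets kept their call.

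Tissue by tissue, 13 of the 25 comparisons were called higher, and all 25 had an unadjusted p under 0.05. In bone marrow 5 of 5 ferritin probe sets were called, against 0.127% of all probe sets. In duodenum 3 were called (0.0799% of all), in spleen 2 (0.0688%), in brain 2 (0.0866%) and in liver 1 (0.091%). Of these 13 calls, 11 belonged to Ftl1 and 2 to Fth1. That split depends on the scaling: after quantile normalization 20 were called, 14 for Ftl1 and 6 for Fth1, with the array standard deviation as covariate 19, 13 for Ftl1 and 6 for Fth1, and with values under 6 set to 6 there were 9, all for Ftl1. Without the 2 spleen arrays of low hybridization control 11 were called, 9 for Ftl1 and 2 for Fth1.

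**Figure D2:**
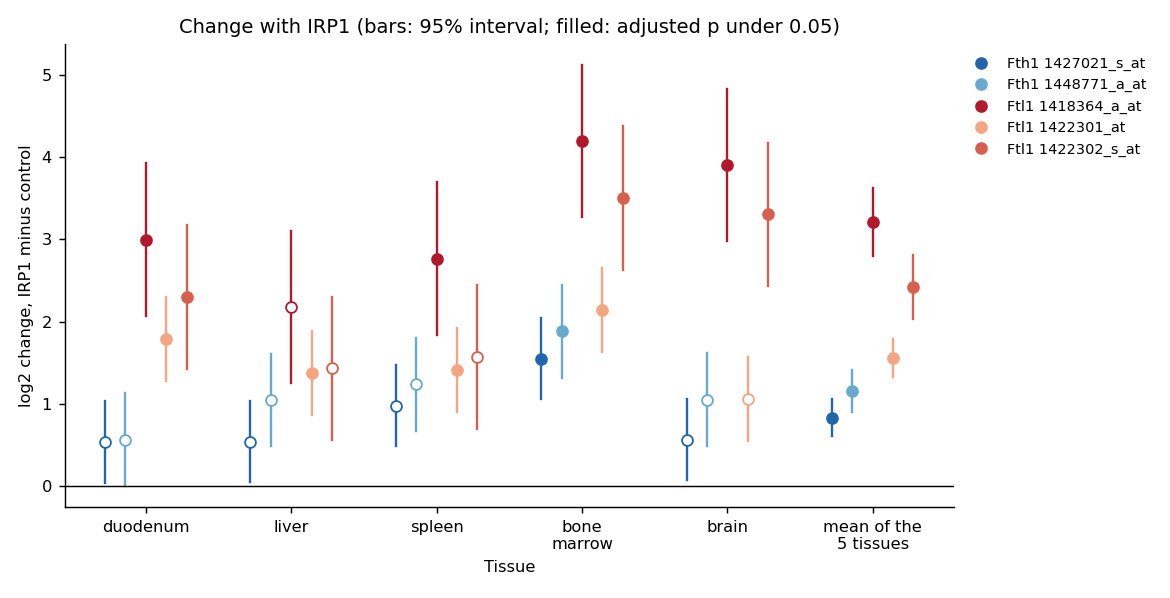
Log2 change, IRP1 minus control (y axis), of the 5 ferritin probe sets in each tissue and in the mean of the tissues (x axis). Points are estimates from 2 arrays per group, bars are 95% intervals, and filled points passed an adjusted p of 0.05; all 5 are filled in bone marrow and in the mean, and the Ftl1 probe set 1418364_a_at is highest in every tissue.

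For Fth1, the heavy subunit, the probe set 1427021_s_at had 14.90 and 15.19 log2 units in the IRP1 arrays of bone marrow, against 13.69 and 13.30 in the controls. This was its largest change, 1.55 ± 0.23, and, in this fit, the only tissue in which it was called (adjusted p 0.00759). In spleen it had 14.21 and 14.98 with IRP1, against 13.64 and 13.58 in the controls, a change of 0.98 with adjusted p 0.189. The spleen IRP1 arrays differed from each other by 0.76, more than their distance of 0.57 from the nearest control. In duodenum it had 15.17 and 15.14 with IRP1, against 14.76 and 14.47 in the controls. In liver it had 14.13 and 14.43 with IRP1, against 13.74 in both controls. In brain it had 14.04 and 14.50 with IRP1, against 13.60 and 13.80 in the controls. The changes in these 3 tissues were 0.54, 0.54 and 0.57, and none passed the test (adjusted p 1.00, 0.322 and 0.720). Its bone marrow call was lost without the IRP1 bone marrow array of replicate 2, with a change of 1.41 and adjusted p 0.196, in a fit of the bone marrow arrays alone (adjusted p 0.0655) and with values under 6 set to 6 (adjusted p 0.0559). A spleen call was gained after quantile normalization (adjusted p 0.0294), with the array spread as a covariate (0.0437) and without the IRP1 spleen array of replicate 1 (change of 1.36, adjusted p 0.0126), and with both spleen arrays of low hybridization control left out the spleen change was 0.57 with adjusted p 0.724.

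The other Fth1 probe set, 1448771_a_at, had 14.84 and 15.07 in the IRP1 arrays of bone marrow, against 12.83 and 13.31 in the controls. The change of 1.88 ± 0.27 was again its largest and, in this fit, its only call in a single tissue (adjusted p 0.00403). In spleen it had 13.75 and 14.61 with IRP1, against 12.80 and 13.08 in the controls. In liver it had 13.56 and 13.90 with IRP1, against 12.84 and 12.53 in the controls, and in brain 13.51 and 14.10 with IRP1, against 12.71 and 12.80 in the controls. Both IRP1 arrays were above both controls in each, but the changes of 1.24, 1.05 and 1.05 did not pass (adjusted p 0.130, 0.122 and 0.298). All 3 of these tissues were called after quantile normalization (adjusted p 1.82e-04 in spleen, 6.81e-04 in liver and 1.27e-04 in brain) and when the array standard deviation entered as a covariate (1.42e-04, 5.00e-04 and 3.67e-04). Duodenum showed the smallest change of this probe set, 0.57 with adjusted p 1.00, from 14.98 and 14.77 with IRP1, against 14.43 and 14.20 in the controls. Without control replicate 1 or without IRP1 replicate 2 of bone marrow its call there was lost, with changes of 1.64 to 1.77 and adjusted p 0.105 to 0.149, and with values under 6 set to 6 it was just lost (adjusted p 0.0515). Without IRP1 replicate 1 of spleen a call there was gained, with a change of 1.67 and adjusted p 0.00804. With both spleen arrays of low hybridization control left out, the spleen change was 0.94 with adjusted p 0.693.

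For Ftl1, the light subunit, 1418364_a_at had 14.69 and 14.94 in the IRP1 arrays of bone marrow, against 10.38 and 10.87 in the controls. That change of 4.19 ± 0.44, or 18.3-fold, was the largest of all 45037 probe sets in bone marrow (adjusted p 2.03e-04). It was also the largest in brain, with 11.96 and 13.56 with IRP1, against 8.70 and 9.01 in the controls, a change of 3.90 or 15.0-fold (adjusted p 4.50e-04). The brain IRP1 arrays stood 1.60 apart, yet the lower of them was 2.95 above the higher control. In duodenum it had 14.39 and 13.91 with IRP1, against 11.39 and 10.92 in the controls, a change of 3.00 that was the largest there too (adjusted p 0.00748). In spleen it had 13.49 and 14.75 with IRP1, against 11.20 and 11.51 in the controls, a change of 2.76 that ranked 9 of all probe sets (adjusted p 0.0173). Liver gave the smallest change, 2.18, at rank 11 and just outside the threshold (adjusted p 0.0630), with 13.80 and 14.19 with IRP1, against 12.13 and 11.50 in the controls. The calls in bone marrow and brain held when any 1 of the 20 arrays was left out, but the brain call was lost in a fit of the brain arrays alone (adjusted p 0.510). The duodenum call was lost without IRP1 replicate 1, control replicate 1 or control replicate 2 of duodenum, with changes of 2.76 to 3.23 and adjusted p 0.0799 to 0.208. In spleen it was lost without control replicate 1, IRP1 replicate 2 or control replicate 2 of spleen, with changes of 2.13 to 2.92 and adjusted p 0.134 to 0.213, with values under 6 set to 6 (adjusted p 0.0577) and in a fit of the spleen arrays alone (adjusted p 0.528). With both spleen arrays of low hybridization control left out, the spleen change was 2.29 and its adjusted p 0.543. Without either IRP1 array of spleen or either IRP1 array of brain a liver call was gained, the liver change staying at 2.18 (adjusted p 0.0245 to 0.0296). The liver call was also gained under 6 other settings, with adjusted p 2.20e-04 with the array spread as covariate, 0.00143 after quantile normalization, 0.0116 from the liver arrays alone, 0.0249 with the replicate block, 0.0327 without probe sets of a mean under 6 and 0.0432 with a trended and robust prior.

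The second Ftl1 probe set, 1422302_s_at, had the same order of tissues as the first by change. In bone marrow it had 14.01 and 14.32 with IRP1, against 10.42 and 10.91 in the controls, a change of 3.50 ± 0.41 (adjusted p 6.10e-04). In brain it had 11.86 and 13.25 with IRP1, against 8.82 and 9.69 in the controls, a change of 3.30 (adjusted p 0.00126). In duodenum it had 13.76 and 13.47 with IRP1, against 11.40 and 11.23 in the controls, a change of 2.30 (adjusted p 0.0425). These 3 changes passed the test, and the duodenum call lies closest to the threshold. It was lost without any 1 of 14 arrays, namely the 4 of duodenum, the 4 of liver, the 4 of bone marrow and the 2 spleen controls, with changes of 2.16 to 2.44 and adjusted p 0.0579 to 0.591, and with values under 6 set to 6 (adjusted p 0.149). In liver it had 13.21 and 13.48 with IRP1, against 12.16 and 11.66 in the controls, and in spleen 13.02 and 14.08 with IRP1, against 11.67 and 12.29 in the controls. The changes of 1.43 and 1.57 did not pass (adjusted p 0.166 and 0.239). They were called after quantile normalization (0.0185 in liver and 0.0239 in spleen), with the array spread as covariate (0.0118 and 0.00455) and with the replicate block (0.0261 and 0.0100). In a fit of the brain arrays alone, which called 0 of all probe sets, its brain call was lost (adjusted p 0.734). The spleen change was 1.36 with adjusted p 0.701 when both spleen arrays of low hybridization control were left out.

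The third Ftl1 probe set, 1422301_at, which also carries the miR-692 genes, had 10.39 and 10.31 in the IRP1 arrays of bone marrow, against 8.44 and 7.99 in the controls. Its change there was 2.14 ± 0.24 (adjusted p 4.56e-04). In duodenum it had 9.63 and 9.22 with IRP1, against 7.47 and 7.81 in the controls, a change of 1.79 (adjusted p 0.00411). In spleen it had 9.34 and 9.75 with IRP1, against 8.30 and 7.96 in the controls, and in liver 9.94 and 9.98 with IRP1, against 8.64 and 8.53 in the controls. Those changes of 1.41 and 1.38 passed as well (adjusted p 0.0285 and 0.0299). Brain was the exception, with a change of 1.06 and adjusted p 0.178, from 8.85 and 9.17 with IRP1, against 7.60 and 8.31 in the controls. The brain call was gained without control replicate 2 of brain, with a change of 1.41 and adjusted p 0.0273. The liver call was lost without each of the 4 liver arrays (changes of 1.32 to 1.44, adjusted p 0.0951 to 0.236) and with the array spread as covariate (adjusted p 0.0754). The duodenum call was lost without IRP1 replicate 1 or control replicate 1 of duodenum (changes of 1.58 to 1.62, adjusted p 0.113 to 0.142). The spleen call was lost without either IRP1 array of liver, either spleen control or IRP1 replicate 2 of spleen (changes of 1.21 to 1.58, adjusted p 0.0513 to 0.419), and with both spleen arrays of low hybridization control left out it was 1.04 with adjusted p 0.693. A fit of the spleen arrays alone, which called 0 of all probe sets, did not call it either (adjusted p 0.528).

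Of the 2 IRP1 arrays of a tissue, the one with the higher ferritin signal also had the larger standard deviation over all its probe sets, in 5 of 5 tissues for both Fth1 probe sets and for 1418364_a_at and 1422302_s_at, and in 4 of 5 for 1422301_at. In the controls that held in 1 tissue for 1427021_s_at and 1422301_at and in 4 for the other three. The ferritin probe sets followed each other closely, so these counts are not independent of each other. The share of all probe sets that behaved so was not counted. In duodenum the IRP1 arrays barely differed in standard deviation, at 2.231 and 2.229. The array standard deviation was 2.01 and 2.18 in the IRP1 arrays of spleen, against 2.16 and 2.24 in the spleen controls. In brain it was 1.98 and 2.10 with IRP1, against 2.16 and 2.11 in the controls. All 5 probe sets kept their call in the mean of the tissues when the array standard deviation entered the fit as a covariate.

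Whether the change of ferritin with IRP1 was unequal across tissues was tested by the difference itself, and no such difference passed. The moderated F-test of the tissue effects gave adjusted p 0.930 for each of the 5 probe sets, and 0.0111% of all probe sets passed that test. The unadjusted p lay between 0.00596 (1422302_s_at) and 0.0513 (1422301_at). The unadjusted p was under 0.05 for 4 of 5 probe sets. Of the 10 pairwise differences between tissues, 0 were called by limma for any ferritin probe set, while 17 of 50 such tests had an unadjusted p under 0.05. Liver and bone marrow differed at that unadjusted level for each of the 5 probe sets, with the larger change in bone marrow. Of all probe sets, 0.0133% differed between bone marrow and brain, 0.00888% between liver and bone marrow, liver and brain, and spleen and brain, 0.00444% between duodenum and liver and duodenum and bone marrow, 0.00222% between duodenum and spleen, and 0% in the other pairs. The largest and smallest tissue changes differed by 2.07 for 1422302_s_at, 2.01 for 1418364_a_at, 1.32 for 1448771_a_at, 1.08 for 1422301_at and 1.01 for 1427021_s_at. The larger number of calls in bone marrow is thus not shown to be a larger change.

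The subunits were compared by the difference of their changes within the same arrays, over 10 pairs of probe sets (exact permutation test, two-sided, labels exchanged within tissues in 7776 arrangements, adjusted over the 10 pairs). The Fth1 probe sets lay near the top of the scale with IRP1, 0.03 to 1.16 log2 units below it for 1427021_s_at and 0.22 to 1.70 for 1448771_a_at, so these are differences of measured log2 changes, and how far the scale set them was not tested. The Ftl1 probe set 1418364_a_at changed by 2.37 more than Fth1 1427021_s_at and by 2.05 more than Fth1 1448771_a_at. The Ftl1 probe set 1422302_s_at changed by 1.59 and 1.26 more than the same Fth1 probe sets. Each of these 4 differences had the same sign in 5 of 5 tissues and p 2.57e-04, the smallest this exact test can give (adjusted p 3.67e-04). The Ftl1 probe set 1422301_at exceeded 1427021_s_at by 0.72 (exact permutation test, adjusted p 3.67e-04) but 1448771_a_at by 0.40 (p 0.0430, adjusted p 0.0430), with tissue differences between 0.01 and 1.22. That last difference was lost without any 1 of 11 arrays, with adjusted p 0.0558 to 0.106 in the exact permutation test; they are IRP1 replicates 1 and 2 and control replicate 1 of duodenum, IRP1 replicate 1 and control replicate 1 of liver, IRP1 replicate 1 and control replicate 2 of spleen, IRP1 replicate 1 and control replicate 2 of bone marrow, and IRP1 replicate 1 and control replicate 1 of brain.

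Probe sets of 1 gene differed as well. Within Fth1, 1448771_a_at changed by 0.32 more than 1427021_s_at (exact permutation test, adjusted p 0.00772), by as little as 0.03 in duodenum and as much as 0.50 in liver. Within Ftl1, the change of 1422301_at minus that of 1418364_a_at was -1.65, and that of 1422302_s_at minus that of 1418364_a_at was -0.79 (adjusted p 3.67e-04 for both in the exact permutation test). The change of 1422302_s_at exceeded that of 1422301_at by 0.87 (adjusted p 0.00772), from 0.05 in liver to 2.24 in brain. In brain 1422301_at fell short of 1418364_a_at by the most, at -2.84. The spread among probe sets of Ftl1 alone is thus as wide as that between several Ftl1 and Fth1 probe sets, and the size of a subunit's change depends on the probe set read.

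Without IRP1, the level of ferritin RNA differed between tissues. The F-test of the control signals was called for all 5 probe sets, as for 63.1% of all probe sets, with adjusted p between 8.89e-05 (1422302_s_at) and 0.0293 (1422301_at). These levels are those of RNA carried along with the antibody, 2 arrays a tissue, and whether they follow the level in the tissue was not tested. In bulk tissue, fewer cells of a type and less RNA per cell cannot be told apart.

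Fth1 in the controls was highest in duodenum. The probe set 1427021_s_at averaged 14.61 there, followed by 13.74 in liver, 13.70 in brain, 13.61 in spleen and 13.50 in bone marrow. Duodenum exceeded each of the other tissues by 0.87 to 1.11 (adjusted p 0.00118 to 0.00896), and no difference among the other four passed. The probe set 1448771_a_at had 14.31 in duodenum, 13.07 in bone marrow, 12.94 in spleen, 12.75 in brain and 12.68 in liver, and again only the 4 differences with duodenum passed, at 1.24 to 1.63 (adjusted p 1.30e-04 to 0.00153). The shares of all probe sets that differed in either direction were 27.5% between duodenum and liver, 32.3% with spleen, 29.6% with bone marrow and 39.6% with brain. Duodenum also carried digestive enzymes of the pancreas: the 5 measured acinar cell markers averaged 13.15 and 14.16 in its controls and 12.36 to 14.16 over its 4 arrays, against 9.25 to 10.18 in spleen and 6.07 to 7.50 in the other tissues. Their part in the duodenum level of Fth1 was not tested. Without the spleen control of low hybridization control, duodenum exceeded spleen by 0.97 in 1427021_s_at and by 1.51 in 1448771_a_at (adjusted p 0.00854 and 7.53e-04). Without control replicate 1 of duodenum the F-test of 1427021_s_at was no longer called (adjusted p 0.0767).

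Ftl1 in the controls was lowest in brain by 2 of its 3 probe sets. The probe set 1418364_a_at averaged 11.82 in liver, 11.35 in spleen, 11.15 in duodenum, 10.62 in bone marrow and 8.85 in brain. Each of the other tissues exceeded brain, by 1.77 in bone marrow to 2.96 in liver, and liver exceeded bone marrow by 1.19 (adjusted p 0.0461), while no other difference passed. The probe set 1422302_s_at averaged 11.98 in spleen, 11.91 in liver, 11.32 in duodenum, 10.66 in bone marrow and 9.25 in brain, and brain was again below each of the others, by 1.41 to 2.72. Spleen and liver exceeded bone marrow by 1.32 and 1.25 in that probe set. For 1422301_at the order was another: 8.58 in liver, 8.21 in bone marrow, 8.13 in spleen, 7.95 in brain and 7.64 in duodenum, and 2 differences passed, duodenum minus liver at -0.94 (adjusted p 0.00690) and liver minus brain at 0.63 (adjusted p 0.0466). Its F-test was lost without control replicate 1 of duodenum or either liver control (adjusted p 0.0753 to 0.133) and with values under 6 set to 6 (adjusted p 0.0975). Without the spleen control of low hybridization control, the excess of spleen over bone marrow in 1422302_s_at was 1.00 and no longer passed (adjusted p 0.201), while spleen stayed above brain by 2.41 in that probe set and by 2.35 in 1418364_a_at (adjusted p 6.49e-04 and 0.00134). Of all probe sets, 38.2% differed between spleen and brain, 39.6% between duodenum and brain, 40.5% between liver and brain and 41% between bone marrow and brain. Between liver and spleen 38.4% differed, between liver and bone marrow 32.5%, and between spleen and bone marrow 18.4%.

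Fth1 lay near the top of the scale, where a probe set has little room to rise. The probe set 1427021_s_at was 0.03 to 1.16 log2 units below the highest value of its array with IRP1, against 0.47 to 1.93 units in the controls. That highest value is over all probe sets of the array, Affymetrix controls included. Ranked without the Affymetrix controls, 1427021_s_at was at 2 to 6 with IRP1, against 9 to 160 in the control reactions. It was within 1 unit of the top in 7 of 10 IRP1 arrays, against 2 of 10 controls. For 1448771_a_at the distance was 0.22 to 1.70 with IRP1, against 0.80 to 2.70 in the controls, and 5 IRP1 arrays were within 1 unit, against 1 control.

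Ftl1 had more room in the controls. The probe set 1418364_a_at was 0.41 to 3.25 units below the top with IRP1, against 3.12 to 6.44 in the controls, and 1422302_s_at was 1.03 to 3.34 units below it with IRP1, against 2.87 to 6.32. The probe set 1422301_at stayed 4.84 to 6.35 units below the top with IRP1, against 6.61 to 7.75 in the controls. Of the 3 Ftl1 probe sets it was the farthest from the top, and its change was smaller than those of the other two.

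Read as a share of the distance between the control mean and the top, the change with IRP1 was greatest in bone marrow for every ferritin probe set: 88.6% for 1427021_s_at, 86.6% for 1448771_a_at, 90.7% for 1418364_a_at, 76.4% for 1422302_s_at and 30.4% for 1422301_at. In duodenum, where 1427021_s_at started at 14.61, its change of 0.54 filled 84.2% of that distance, while in liver the same change of 0.54 filled 36.2%. The distance from the duodenum controls to the top was itself 0.64 for 1427021_s_at and 0.94 for 1448771_a_at, below their changes of 1.55 and 1.88 in bone marrow. How far the scale lowered the changes of Fth1 was not tested.

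**Figure D3:**
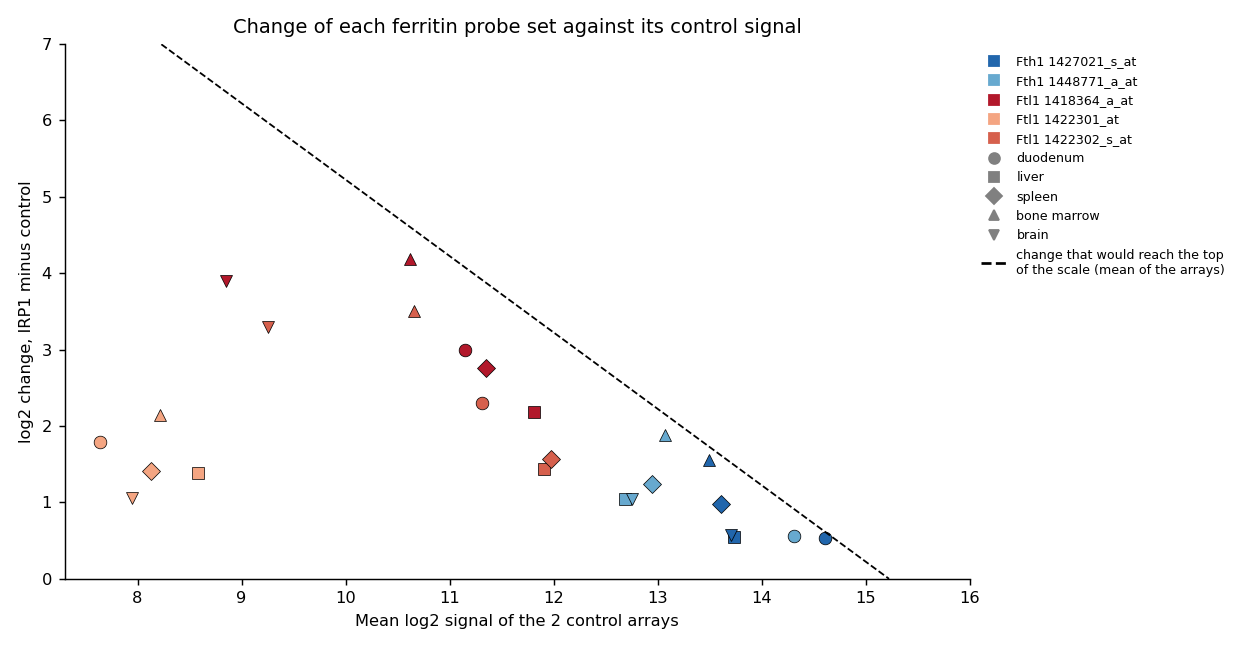
Log2 change, IRP1 minus control (y axis), against the mean log2 signal of the 2 control arrays (x axis), 1 point per ferritin probe set (colour) and tissue (marker). The dashed line is the change that would reach the mean highest value of the arrays; the bone marrow points of the Fth1 probe sets and of Ftl1 1418364_a_at fill the largest shares of the way to it, 86.6% to 90.7%, and both axes share the control mean.

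The Fth1 probe sets stood apart from others as bright. In the mean of the 5 tissues, 70 probe sets (0.155% of all) had a control signal at least as high as the 13.15 of Fth1 1448771_a_at. Of these, 2 were called higher (2.86%), and both were the Fth1 probe sets, one of which sets that limit. The median change of the 70 was -0.19, and the next one, Pttg1, had 0.21 (adjusted p 0.112). Among the 1102 probe sets with a control signal of at least 10.76, that of Ftl1 1418364_a_at, 11 were called higher (0.998%) and the median change was -0.17. These 11 are no separate background. They include both Fth1 probe sets, Ftl1 1418364_a_at and 1422302_s_at, and probe sets of the iron genes Tfrc, Slc40a1 and Epas1 described below.

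The other messenger RNAs with an IRE in the 5′ UTR moved the same way as ferritin. The 3 such genes that were measured were all called higher in the mean of the tissues, with a median of 1.36, against a median of -0.01 over all probe sets. Slc40a1, the iron exporter ferroportin, changed by 1.36 ± 0.12 (adjusted p 7.05e-06), Alas2, which starts heme synthesis in red cell precursors, by 2.22 ± 0.17 (adjusted p 1.18e-06), and Epas1, the hypoxia factor HIF-2 alpha, by 1.35 ± 0.15 (adjusted p 8.69e-05). These values are of each gene's brightest probe set. Another probe set of Slc40a1 gave 2.83 ± 0.13 (adjusted p 2.96e-09) and another of Epas1 gave 1.73 ± 0.12 (adjusted p 2.61e-07), so the median of the list depends on the probe set read. The median of the 5 ferritin probe sets was 1.56.

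Of 5 genes reported to hold an IRE in the 3′ UTR, 3 were called higher and the median was 1.32. Tfrc, the transferrin receptor that takes up iron, changed by 2.19 ± 0.12 (adjusted p 3.96e-08), Slc11a2, the iron importer DMT1, by 1.84 ± 0.14 (adjusted p 9.63e-07), and Hao1, a peroxisomal hydroxyacid oxidase, by 1.32 ± 0.24 (adjusted p 0.0103). Hao1 was dim in the mean of the controls, at 5.25, but its control arrays ranged from 3.71 to 10.84. It was called in 0 single tissues, and changed by 0.49 with values under 6 set to 6 (adjusted p 0.0411). The other probe sets of Tfrc gave 1.98 and 2.88 and those of Slc11a2 gave 0.02, 1.13 and 1.62, of which the 0.02 was not called (adjusted p 0.971). The remaining genes, Cdc14a with -0.10 and Cdc42bpa with 0.13, were not called.

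A further list held relatives of ferritin and genes that handle ferritin, iron or heme. Of its 20 genes 14 were measured and 0 were called in either direction by limma. Their median was -0.02, with a range from -0.36 to 0.18, and 2 of them, Pcbp2 (-0.33) and Hmox2, had an unadjusted p under 0.05. With 0.773% of all probe sets called higher and 1.03% lower, a list of this size is near the background at 0. Mitochondrial ferritin, Ftmt, whose messenger RNA lacks an IRE, had the highest value of them, 0.18 ± 0.09 (adjusted p 0.363). The controls averaged 4.83 for Ftmt, 4.79 for Fthl17a and 5.12 for Scara5, below the array medians. Whether IRP1 held these dim RNAs can therefore not be read from their changes. Ncoa4, which brings ferritin to the lysosome, had a change of -0.25 (adjusted p 0.350). The lowest was heme oxygenase Hmox2 at -0.36 (adjusted p 0.0664). It was called lower without IRP1 replicate 2 of spleen, IRP1 replicate 2 of brain or control replicate 2 of brain, at -0.42 to -0.40 with adjusted p 0.0156 to 0.0397. Of 11 genes for the iron regulatory proteins and for the control of ferritin expression, 10 were measured and 0 were called by limma (1, Ireb2, at an unadjusted p under 0.05), with a median of -0.11 and a range from -0.29 to 0.08. They include Aco1, which encodes IRP1 itself, at -0.20, and Ireb2, which encodes IRP2, at -0.29.

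**Figure D4:**
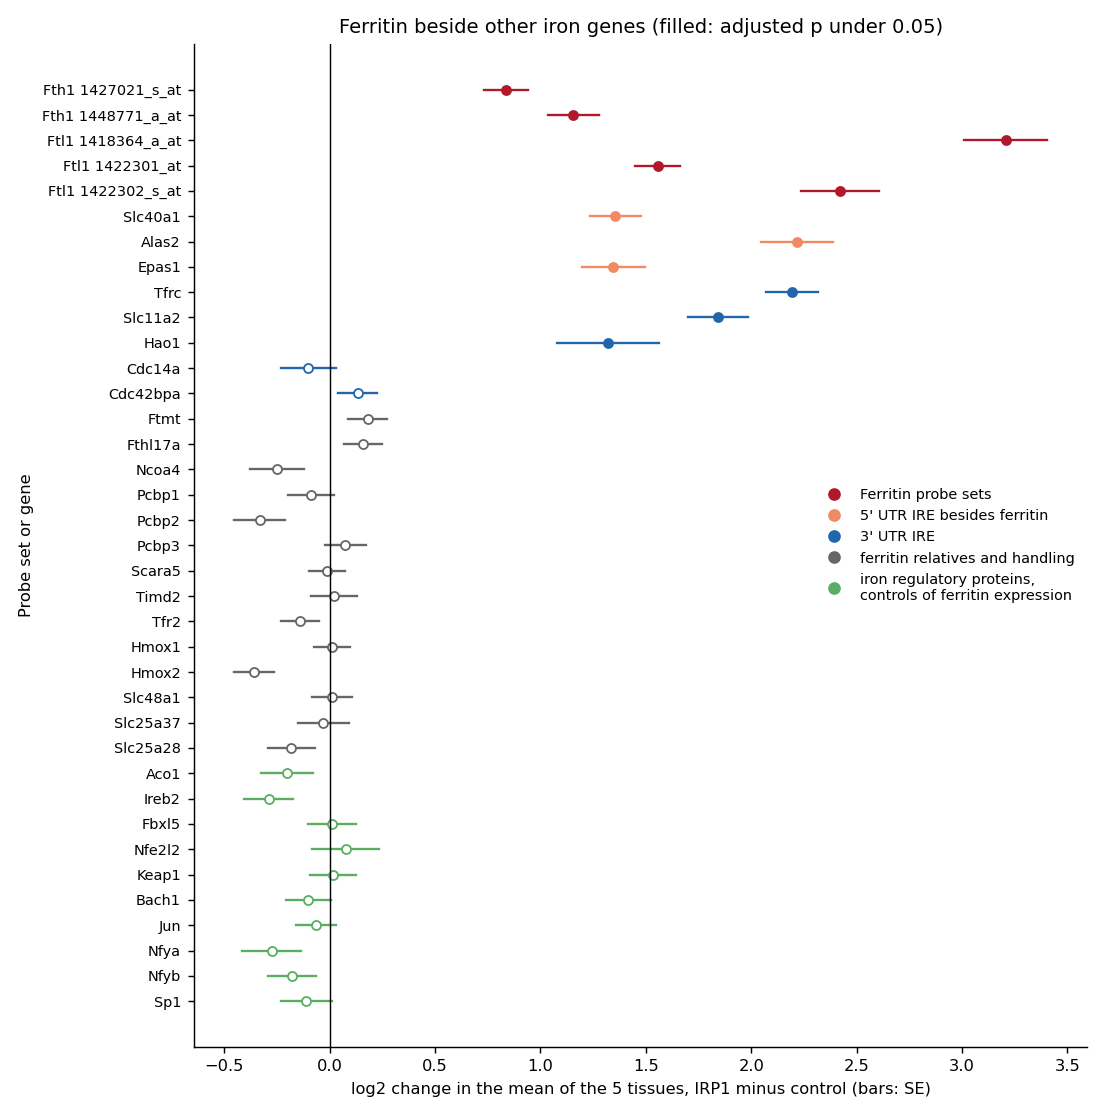
Log2 change in the mean of the 5 tissues, IRP1 minus control (x axis), for the 5 ferritin probe sets and for the measured genes of 4 lists (y axis, 1 probe set each). Bars are standard errors and filled points passed an adjusted p of 0.05; all ferritin probe sets, the 3 genes of the 5′ UTR list and 3 of the 5 genes of the 3′ UTR list are filled, and none of the other genes is.

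Genes whose signal followed ferritin most closely were ranked by Pearson r over the 20 arrays after each tissue's mean was taken out, among 25955 probe sets with 1 gene symbol that vary enough. These values are a description: the points share the reaction, so any RNA recovered with IRP1 scores high. For the mean of the Fth1 probe sets the highest were Ssbp3 (0.973), Lrpap1 (0.967), Apba3 (0.959), Slc11a2 (0.958) and Gyg (0.954). For Ftl1 they were Lrpap1 (0.975), Tfrc (0.971), Cep95 (0.965), Slc40a1 (0.963) and Hmces (0.962). The ferritin probe sets followed each other at 0.886 to 0.988 in the same measure.

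In the 10 control arrays alone the ferritin probe sets went apart. Fth1 1427021_s_at and 1448771_a_at correlated at 0.815 across those arrays, and Ftl1 1418364_a_at and 1422302_s_at at 0.966. The probe set 1422301_at had 0.287 and 0.300 with the other Ftl1 probe sets, and -0.471 and -0.677 with the Fth1 probe sets. Closest to Fth1 were Gmds (0.992), Tmed6 (0.991), Mptx1 (0.990), 9130019O22Rik (0.990) and 2210010C04Rik (0.989), and closest to Ftl1 were Prep (0.981), Stard5 (0.980), Ifi27 (0.974), Umps (0.963) and Stat2 (0.960), over 22927 probe sets. The 10 points fall into 5 tissues of 2 arrays, and for Fth1 duodenum lies apart from the other tissues. For Ftl1, brain lies apart by 1418364_a_at and 1422302_s_at. How far these values rest on duodenum or on brain was not tested.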

How the data were processed

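The authors deposited 1 table of log2 signals per probe set; per the series design text, intensities came either from RMA in Bioconductor or from MAS5 in GCOS followed by quantile normalization. No source used here says which of them produced the table. Its range is of the kind RMA yields, which was not checked against scanner files. The log2 values were used as deposited. Of 45101 probe sets, 64 Affymetrix controls were left out. With limma 3.58.1 in R 4.3.3 (lmFit, eBayes), 1 model of 10 group means was fitted to all 20 arrays (10 residual degrees of freedom, prior 6.14), with contrasts IRP1 minus control per tissue, their equally weighted mean, F-tests across tissues and pairwise differences. P-values are two-sided, adjusted by Benjamini-Hochberg over 45037 probe sets, and called under 0.05. Errors are standard errors of the model. The number of arrays, 2 per group, limits the precision. Differences between probe sets' changes used an exact permutation test.

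The 5 ferritin probe sets are all named; from 4 lists of iron genes those called in the mean of the tissues are named, and others were singled out after their values were seen. A listed gene is read from its probe set with exactly 1 symbol and the highest mean. The 5 genes most alike were named per subunit. Members and lists were chosen with earlier results of these data known. Gene symbols come from GEO's platform annotation, which gives 1 symbol for 34945 probe sets, several for 932 and none for 9160. Sequences are RefSeq's (GRCm38.p6). The fit and the calls were tested on simulated data. Plots were made in Python 3.11.15 using matplotlib 3.10.9. Alternatives changed the normalization, the array spread, the handling of dim values, the weights, the prior, the pairing and the arrays used.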

Additional observations from a re-analysis of the deposited data

How the results depend on the processing

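In the mean of the tissues all 5 ferritin probe sets kept their call under 9 other settings and with any 1 of the 20 arrays left out, and the highest adjusted p was 0.00381, for Fth1 1427021_s_at. The count of ferritin probe sets called per tissue was less steady. In liver (1 called) it was 4 after quantile normalization, 3 when the array standard deviation was a covariate, 2 without probe sets of a mean under 6, 2 with a trended and robust prior, 3 with the replicate block and 2 from the liver arrays alone. In spleen (2) it was 5 after quantile normalization and 5 with the covariate, 1 with values under 6 set to 6, 0 from the spleen arrays alone and 0 without the 2 arrays of low hybridization controls. It was 3 in spleen with the replicate block. In bone marrow (5) it was 3 with values under 6 set to 6 and 4 from its arrays alone. In brain (2) it was 0 from the brain arrays alone, 3 after quantile normalization and 3 with the covariate, and in duodenum (3) it was 2 with values under 6 set to 6. Leaving out 1 array at a time gave 0 to 3 calls in duodenum, 0 to 2 in liver, 0 to 4 in spleen, 3 to 5 in bone marrow and 2 to 3 in brain. The same changed which ferritin probe sets had a control signal that differs between tissues (4 with values under 6 set to 6). It gave 9 to 10 called pairs and changed the call of Hmox2. Where a group kept 1 array, it was assumed to vary like the others. No value reversed. Over all tests of a ferritin probe set in a tissue under these settings, 677 of 750 kept their side of the threshold, 46 lost a call and 27 gained one. The cause was not tested, except that a fit of 1 tissue or fewer arrays has fewer degrees of freedom. Over all probe sets, the calls in the mean were 348 higher (225 to 607 under other settings, 203 to 477 without 1 array) and 464 lower (123 to 667, and 118 to 1352). Replicate numbers were not taken to pair arrays: the correlation of same-numbered arrays' deviations was 0.27 in duodenum, -0.07 in liver, 0.53 in spleen, -0.04 in bone marrow and 0.12 in brain, and 7 of 10 IRP1 arrays correlated best with the control of their own number. Hao1 has no value where probe sets of a mean under 6 are left out, and its change was 0.49 to 1.53 under the other 8 settings. How far signal near the top of the scale, where the Fth1 probe sets lie, lowers a change was not tested.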
